A study of Mus musculus with 14 samples.

Results

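The genes examined here encode the proteins of the cytosolic ribosome. They were chosen by symbol from the RefSeq protein-coding genes of the mouse build GRCm38: symbols that begin with Rpl or Rps and a digit, with Rpsa, Rplp0, Rplp1 and Rplp2, and without the Rps6k kinases. The rule took in 91 of 21887 protein-coding genes. Of these, 77 encode core ribosomal proteins, 46 of the large subunit and 31 of the small subunit. The other 14 are paralogs, retroposed copies and a partner protein (Rpl22l1, Rpl37rt, Rpl34-ps1, Rps23rg1, Rps27l, Rps27rt, Rpl32l, Rpl10l, Rpl36al, Rps19bp1, Rpl39l, Rpl31-ps12, Rpl3l and Rpl7l1). By symbol the rule misses some ribosomal components, such as Rack1, a scaffold protein of the small subunit, and Fau, which encodes a ribosomal protein fused to a ubiquitin-like protein.

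The data were lists of ChIP-seq peaks, 1 per library, from mouse embryonic stem cells (mESCs) and from gastruloids, aggregates of 300 such cells collected at 120 h after a pulse of the Wnt pathway activator CHIR99021 (3 µM) from 48 h. All lines derived from an E14 reporter line, which the sample labels name a triple reporter and the growth protocol a dual one (Brachyury-GFP and SOX17-RFP), grown on gelatin with serum and leukemia inhibitory factor. Each line carried 1 tagged protein expressed from its own gene: p300 with V5 and the biotin ligase miniTurboID, or RXRα, Sp5 or Zeb2 with HA and the FKBP12F36V degron. Every group, the inputs included, thus carried a tagged protein. p300 and RXRα were profiled in both cell types, Sp5 and Zeb2 in gastruloids only, each with 2 libraries, and the p300 line gave 1 input per cell type. Whole gastruloids were dissociated before crosslinking, so a list averages over their cell types, and fewer cells with a bound site cannot be told apart from less binding per cell. Whether the replicates were separate cultures is not given in the sources used here.

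Ribosomal protein genes are transcribed in every growing cell, at matched levels, since the ribosome needs its proteins in equal numbers. Their promoters are known for a start site inside a run of pyrimidines (the TOP tract, which lets growth signals control translation of the mRNA), and for sites of ETS factors, Sp-family factors and YY1 close to the start. p300 is an acetyltransferase recruited by DNA-bound factors to enhancers and active promoters, RXRα is the common partner of many nuclear receptors, Sp5 is a Wnt-induced zinc-finger factor that binds GC boxes, and Zeb2 is a zinc-finger repressor that binds E-boxes of the CACCTG type.

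The libraries held 3111 to 75346 peaks after removal of peaks at input peaks, and the inputs held 111 and 514. A sampled peak had a median of 12 to 34 fragments at its summit in the immunoprecipitations. The shortest list was the second RXRα gastruloid library. Where the peaks of both replicates overlapped, the common stretch is called a region, and a gene was counted for a group when a region had its strongest summit within 1 kb of either end of the gene. The fold enrichment given for a region is the authors' ratio of signal at the summit to local background.

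By the full lists, p300 was at most ribosomal protein genes in gastruloids. In mESCs it was at few, a share near that of all genes. In gastruloids 75 of the 91 genes had a p300 region at an end (82.4%), where 46.8% of all protein-coding genes had one. In mESCs the count was 10 of 91 (10.99%), where 10.7% of all genes had one. With the 4 p300 lists cut to the 35371 strongest peaks each, 29 members had a region in gastruloids (31.9%, against 23.2% of all genes). In mESCs 9 then did (9.89%, against 8.56%). In the single p300 libraries 86.8% and 84.6% of the members had a peak in gastruloids, where 50.7% and 51.6% of all genes had one. In mESCs the shares were 20.9% and 13.2%, where 19.9% and 13.6% of all genes had one. The shares of the gastruloid and mESC libraries did not overlap: they averaged 85.7% ± 1.55 (SD, n = 2) and 17.03% ± 5.44 (SD, n = 2). An exact two-sided permutation test over the 4 libraries gave p = 0.333, the smallest that 2 against 2 can give.

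The other factors divided these genes more finely. Sp5 had a region at 52 genes (57.1%, against 34.8% of all genes) and RXRα in mESCs at 30 (33.0%, against 22%). Zeb2 was at 22 (24.2%, against 23.5%), a share near that of all genes. RXRα in gastruloids was at 7 (7.69%, against 4.87%). The mESC input had a peak at none of the 91 (0.164% of all genes) and the gastruloid input at 1 (1.10%, against 1.89%).

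The count for RXRα in gastruloids and that for Zeb2 each rested on their second, shorter library. RXRα replicate 1 had a peak at 58 of the 91 genes and replicate 2 at 7, all of them among the 58; over all genes the shares were 42.7% and 5.32%. Zeb2 replicate 1 had a peak at 75 genes and replicate 2 at 23, again all among the first, and over all genes the shares were 55.4% and 24.6%. Without the second library the counts would thus be 58 and 75. Sp5 replicates had 72 and 53 genes (46.6% and 35.9% of all genes) and RXRα in mESCs had 45 and 36 (37.9% and 25.7%). The p300 mESC count of 10 would be 19 without replicate 2 and 12 without replicate 1.

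**Figure D1:**
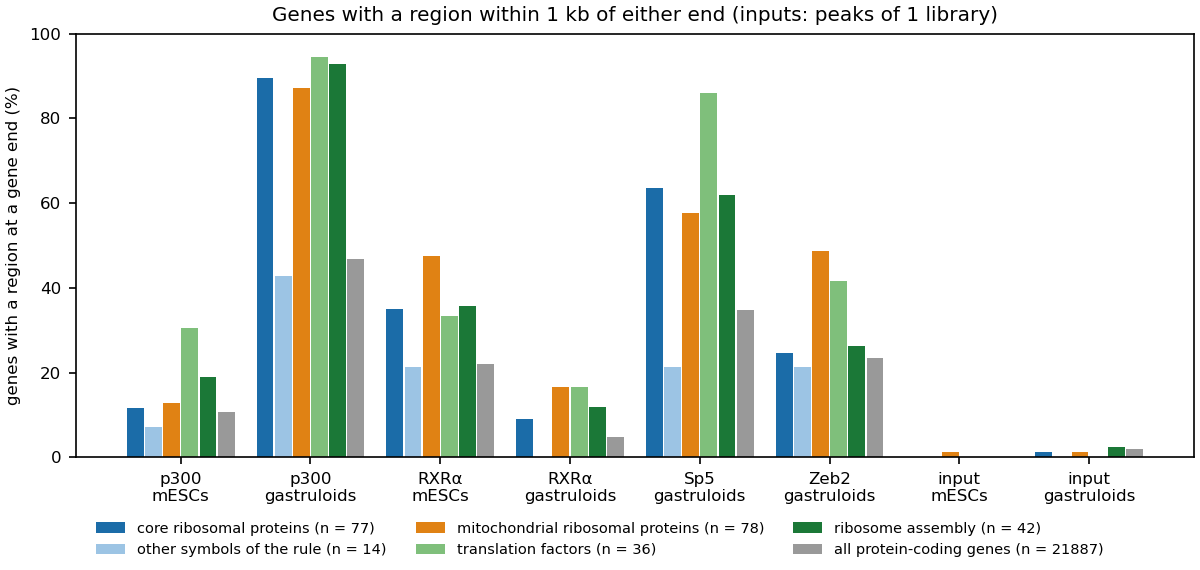
Share of genes (%, vertical axis) with a region at a gene end in each of 6 groups, and with a peak in each input, for 6 sets of genes (bars). In p300 gastruloids the core ribosomal proteins reach 89.6%, beside 46.8% of all protein-coding genes, and in p300 mESCs 11.7% beside 10.7%.

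Of the 77 core genes, 69 had p300 in gastruloids (89.6%), 49 had Sp5 (63.6%), 27 had RXRα in mESCs (35.1%), 19 had Zeb2 (24.7%), 9 had p300 in mESCs (11.7%) and 7 had RXRα in gastruloids (9.09%). Large and small subunit genes had p300 in gastruloids in near-equal shares, 41 of 46 (89.1%) and 28 of 31 (90.3%). Of the 14 other symbols, 6 had p300 in gastruloids and 3 had Sp5. Rack1 and Fau, which the symbol rule misses, both had p300 and Sp5 regions in gastruloids and no p300 region in mESCs.

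Genes of related function had p300 in gastruloids as often. It was at 34 of 36 translation factors (94.4%), at 39 of 42 ribosome assembly factors (92.9%) and at 68 of 78 mitochondrial ribosomal protein genes (87.2%). The lists parted from the core genes in other groups. Translation factors had p300 in mESCs at 11 of 36 (30.6%), beside 11.7% of the core genes and 10.7% of all genes. They had Sp5 at 31 of 36 (86.1%), beside 63.6% and 34.8%. Mitochondrial ribosomal protein genes had Zeb2 at 38 of 78 (48.7%), beside 24.7% of the core genes and 23.5% of all genes. The Zeb2 counts rest on its second, shorter library: replicate 1 alone had a peak at 75 of the 91 members. No test of these differences was made, since the members and lists were chosen with results known.

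The individual genes with p300 in gastruloids were similar in strength, and modest. Fold enrichment of the strongest region at the 69 core genes ran from 2.98 to 7.69 with a median of 4.84. The median over all p300 regions at a gene end in gastruloids, not only the strongest per gene, was 5.39. None of the 75 members had a region among the strongest 10% of both lists, and the median region ranked at 68.4% from the top. Recovered fragments at a summit ran from 12 to 64 in a library. The strongest was Rps23rg1, a retroposed copy of Rps23, with folds of 10.96 and 12.71 (64 and 48 fragments; mean 11.84 ± 1.24, SD, n = 2). Its region at chr8:3567506-3568174 had its summit 224 bp upstream of the RefSeq start. Rpl3, a large subunit protein near the peptidyl transferase centre, had folds of 7.04 and 8.34, and Rpl22l1, the paralog of Rpl22, had 5.55 and 9.79. Rpl21 had 7.45 and 7.47, Rps20 had 7.31 and 6.62, and Rpl35a had 6.08 and 7.61. Rpl5, which binds 5S rRNA, had 7.66 and 5.35, and Rpl39, which lines the exit tunnel, had 5.13 and 7.70. Apart from Rps23rg1, the mean folds of these genes lay between 6.41 and 7.69, closer together than the replicates of several of them. The strongest genes of the other lists were Eif4a1 (an RNA helicase of initiation, mean fold 10.09) and Pabpc1 (a poly(A)-binding protein, 9.06), Fbl (an rRNA methyltransferase, 9.65) and Gar1 (a pseudouridylation factor, 8.81), and Mrpl23 (12.17) and Mrps36 (9.63).

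**Figure D2:**
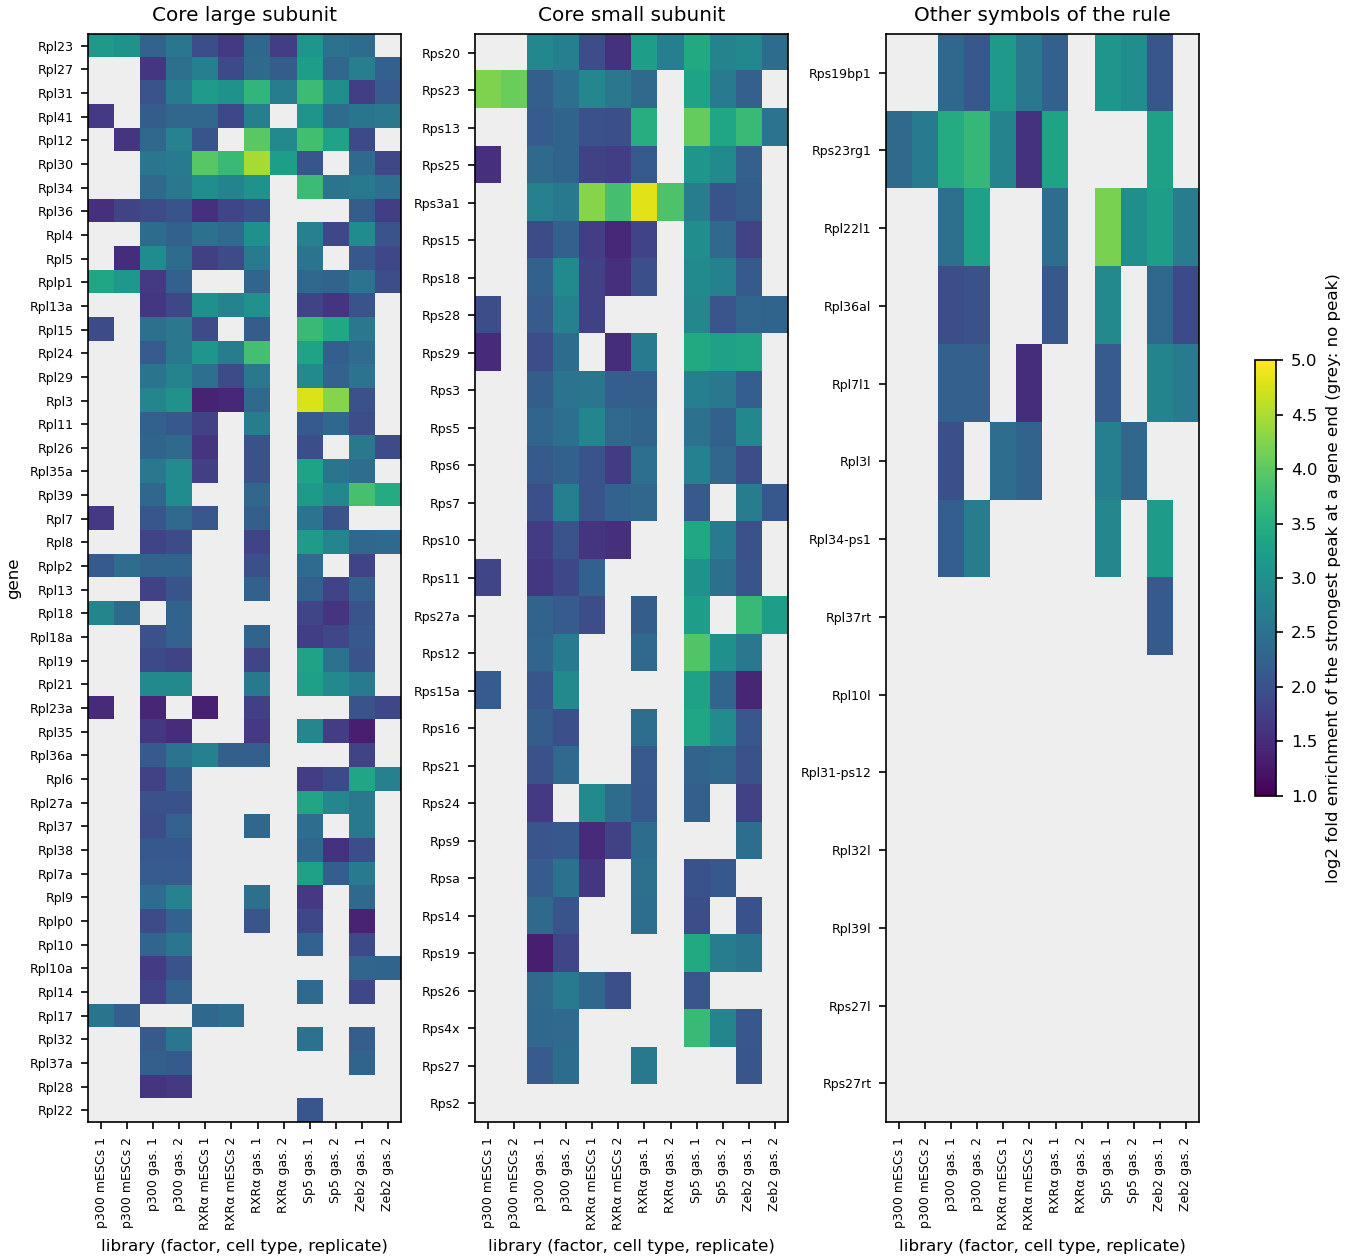
Each row is a ribosomal protein gene (genes not reported by name are left out) and each column an immunoprecipitation library (replicates 1 and 2 side by side); colour is the log2 fold enrichment of the strongest peak at a gene end, and grey marks no peak. Both p300 gastruloid columns are filled for nearly all core genes, the p300 mESC columns for few, and the second RXRα and Zeb2 gastruloid columns for fewer than the first.

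The difference between the p300 lists was concentrated at the start of the genes. RefSeq promoter entries gave a start and strand for 70 of the 91 members, 57 of them core genes, and for 17492 genes in all. This start-centred count was added after the data were seen. In gastruloids 55 of the 57 core genes (96.5%) had a p300 region within 1 kb of the start, where 48.7% of all genes had one. In mESCs 0 of 57 had one, where 8.94% of all genes did. The single gastruloid libraries had a peak there at 57 and 56 of the 57 (52.4% and 52.9% of all genes). The single mESC libraries had one at 3 (Rpl15, Rpl41 and Rps25) and at 2 (Rpl12 and Rpl5), with no gene in common (18% and 11.8% of all genes). Neither input had a peak at a core start (0.154% of all genes for the mESC input and 2.1% for the gastruloid input). Mitochondrial ribosomal protein genes had p300 at the start at 6 of 69 in mESCs and 62 of 69 in gastruloids.

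The gastruloid count, 55 of the 57 core starts by the full lists, depended strongly on the length of the lists. With the 4 p300 libraries cut to the 35371 strongest peaks each, the length of the shortest, core starts with a p300 region numbered 20 of 57 in gastruloids (35.1%) and 0 in mESCs. Over all genes the shares were then 23.7% and 6.75%. By either end of the gene the members numbered 29 in gastruloids and 9 in mESCs, where 23.2% and 8.56% of all genes had a region.

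Gene by gene, 58 of the 91 members had a p300 region in gastruloids and no p300 peak of either mESC library at an end, where 28.6% of all genes did. Of the core genes 53 of 77 were of this kind. With the 4 p300 lists cut to the 35371 strongest peaks, 24 of the 91 members were (26.4%), where 14.9% of all genes were. The reverse held for 2, Rpl17 among them (1.07% of all genes). The other had a p300 peak near an end in both gastruloid libraries, removed because it touched an input peak. Regions in both cell types were at 7 (8.71% of all genes). No p300 peak in any of the 4 libraries was at 9 (9.89%, against 42.3% of all genes), 7 of them outside the core. With peaks at input peaks kept, 76 members had p300 in gastruloids and 53 had Sp5.

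The 10 genes with p300 in mESCs carried it away from the start where the start is known, with 1 exception. Rps23, a protein of the decoding centre, was strongest, with folds of 18.62 and 17.07 (155 and 110 fragments; mean 17.84 ± 1.10, SD, n = 2). That region, at chr13:90925067-90925597, lay 2254 bp past the RefSeq start and 644 bp from the other end of the gene. Its gastruloid p300 region was instead 52 bp past the start, with folds of 4.65 and 5.53, and another gastruloid region overlapped the mESC site. Rplp1, of the ribosomal stalk, had 10.28 and 8.75, 963 bp from the nearest end. Rpl23 had 8.998 and 8.193, 4640 bp past its start and 273 bp from the other end. Rpl18 had 7.08 and 5.21, at -3195 from its RefSeq start. Others were Rps23rg1 (mean 5.74), Rpl17 (5.24), Rplp2 (4.88) and Rpl36 (3.23). Of the 5 genes with a known start, 1 had the mESC summit within 1 kb of it: Rps23rg1, 237 bp upstream. The gastruloid summit of Rps23rg1 lay 224 bp upstream, with both mESC libraries (5.21 and 6.28) and both gastruloid libraries (10.96 and 12.71) in the lists. At 3 of the 10 (Rpl36, Rps23 and Rps23rg1) the mESC region overlapped a p300 region of gastruloids, at 2 more (Rpl18 and Rpl23) a gastruloid p300 peak but no region, and at 5 neither. Of the 2345 genes of the genome with p300 in mESCs at an end, 67.8% had such an overlap with a gastruloid region, 9.17% with a peak only and 23.1% with neither. No test of the difference was made on 10 genes.

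**Figure D3:**
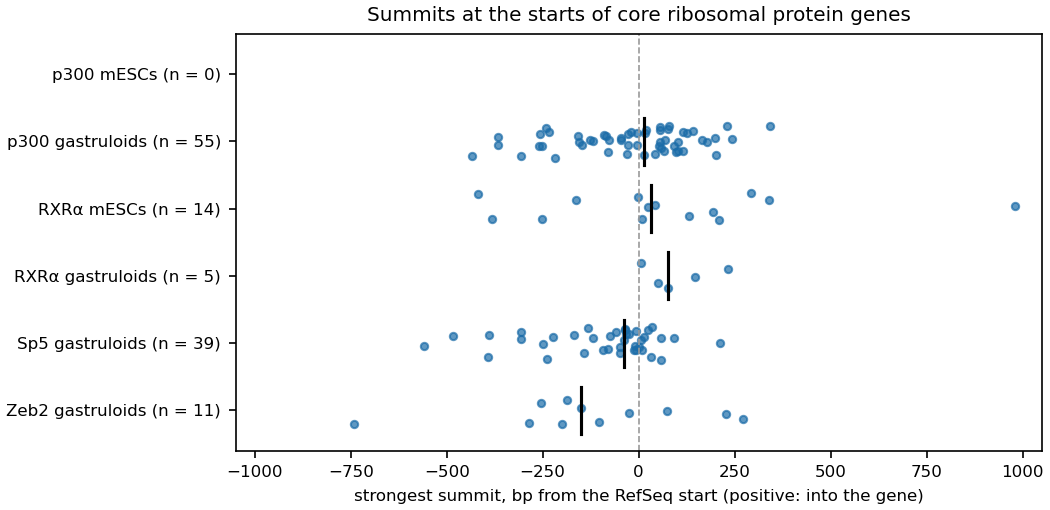
Distance in bp of the strongest summit from the RefSeq start (horizontal axis) for core genes with a region within 1 kb of it; each point is a gene, the bar is the group median, and points are spread vertically only to be seen. The p300 gastruloid points lie between -434 and 342, and the p300 mESC row is empty.

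In gastruloids p300 sat over the start itself. At the 55 core genes the summit had a median position of 13 bp past the start and ranged from -434 to 342. It lay within 200 bp at 41 of them (74.5%), where 64.7% of all genes with a p300 region at the start had it so near. Sp5 had a median of -38 and 29 of 39 genes within 200 bp (74.4%), near the 73.1% of all genes with Sp5 at the start. Zeb2 had a median of -149 with 6 of 11 within 200 bp (54.5%, against 45.8% of all genes). RXRα in mESCs had a median of 33.5 with 7 of 14 (50%, against 40.5%).

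The 1 kb rule left out some starts because a few RefSeq gene models run far upstream of the promoter entry. Rps2, Rpl18 and Rps27l have the start 1942, 2604 and 1462 bp inside the gene, and Rpl19 4707 bp. By gene ends Rps2 and Rps27l had no region in any group and Rpl18 had no p300 in gastruloids, but their starts had p300 regions with folds of 4.78 and 4.80 (Rps2), 5.10 and 5.25 (Rps27l) and 4.89 and 5.51 (Rpl18). Rpl22 has 2 RefSeq starts, one at the gene end and another 1290 bp inside. It had no region at an end and a p300 region 76 bp past the inner start with folds of 7.37 and 8.39, the highest mean of any core start (7.88). Of the 10 members with no region at an end, those left are Rpl28, Rpl37rt, Rps27rt, Rpl32l, Rpl10l, Rpl39l and Rpl31-ps12, all but Rpl28 outside the core. The core genes short of a p300 region at the start in gastruloids were Rpl28 and Rps24. Rpl28 had a peak in both libraries, with folds of 3.06 and 3.16, that did not overlap each other, and Rps24 had a peak of fold 3.203 in replicate 1. At the limit itself, the p300 gastruloid summit furthest inside was that of Rpl38 at 961 bp and the nearest outside that of Rpl22 at 1366 bp.

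The sequences of 6 promoters show where the strongest or clearest sites of each DNA-binding factor lie relative to known motifs. Each runs from 150 bases before the RefSeq start to 20 bases after it, 5′ to 3′ on the strand of the gene, from the RefSeq promoter table of GRCm38.p6. Capitals mark GGGTCA and CCGGAAG in Rps3a1, GGGCGG (as CCGCCC on this strand) and GGGTCA (as TGACCC) in Rpl31, GGGCGG or CCGCCC in Rpl12, Rps4x and Rpl15, and CACCTG in Rpl39. Other matches stay in lower case. Rps3a1 is shown for RXRα (chr3:86142649-86142818, minus strand), with Rpl31 (chr1:39367701-39367870, plus). Rpl12 (chr2:32961562-32961731, plus), Rps4x (chrX:102189372-102189541, minus) and Rpl15 (chr14:18270967-18271136, minus) are shown for Sp5, and Rpl39 (chrX:37085203-37085372, minus) for Zeb2. Rps4x was picked after its values were seen: its Sp5 folds were 12.99 and 7.10, with the summit at -8. Each promoter shown for Sp5 holds a GC box. Rps12, stronger than Rps4x for Sp5 (15.04 and 8.03), holds none in the promoter window searched below and is not shown.
Rps3a1: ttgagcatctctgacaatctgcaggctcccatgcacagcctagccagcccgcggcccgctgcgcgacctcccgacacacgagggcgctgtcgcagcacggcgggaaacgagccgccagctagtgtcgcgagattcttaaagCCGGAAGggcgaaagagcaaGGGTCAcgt
Rpl31: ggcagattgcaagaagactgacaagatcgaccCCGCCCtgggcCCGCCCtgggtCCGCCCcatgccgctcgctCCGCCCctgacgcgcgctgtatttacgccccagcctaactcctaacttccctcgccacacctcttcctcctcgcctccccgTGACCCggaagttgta
Rpl12: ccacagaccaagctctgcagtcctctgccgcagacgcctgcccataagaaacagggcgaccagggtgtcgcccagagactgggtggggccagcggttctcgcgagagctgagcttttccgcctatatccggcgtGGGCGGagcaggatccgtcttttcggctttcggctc
Rps4x: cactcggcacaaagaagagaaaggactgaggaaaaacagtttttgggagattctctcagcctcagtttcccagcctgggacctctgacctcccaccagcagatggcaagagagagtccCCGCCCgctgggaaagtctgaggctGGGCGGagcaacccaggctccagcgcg
Rpl15: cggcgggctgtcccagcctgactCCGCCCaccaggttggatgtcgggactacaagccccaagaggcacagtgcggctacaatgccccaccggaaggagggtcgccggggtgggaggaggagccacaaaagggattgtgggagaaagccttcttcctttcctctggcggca
Rpl39: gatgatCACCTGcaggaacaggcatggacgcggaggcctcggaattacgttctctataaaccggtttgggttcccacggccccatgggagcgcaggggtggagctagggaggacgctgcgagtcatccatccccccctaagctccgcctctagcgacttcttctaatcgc

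RXRα was strongest at Rps3a1, a small subunit protein, in both cell types. Its folds were 19.35 and 14.08 in mESCs (170 and 98 fragments) and 28.36 and 14.70 in gastruloids (188 and 49 fragments), with means of 16.71 ± 3.72 and 21.53 ± 9.66 (SD, n = 2). The summit lay 2 bp before the start in mESCs and 5 bp after it in gastruloids, between the CCGGAAG at -9 to -3 and the GGGTCA at 12 to 17 of the sequence above. All 4 libraries placed it in the top 3.07% of their peaks. Rpl30, a large subunit protein, came next with 15.64 and 13.09 in mESCs and 22.30 and 9.31 in gastruloids. Rpl31 had 9.28 and 8.21 in mESCs and 12.40 and 6.40 in gastruloids, with summits 42 and 50 bp after the start, downstream of the TGACCC at 5 to 10. In mESCs the next were Rpl24 (8.62 and 6.49, summit at 25) and Rps19bp1, the partner of Rps19 (8.95 and 6.04, at -326).

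Most RXRα genes of gastruloids also had RXRα in mESCs, as over all genes. The 7 were Rps3a1, Rpl30, Rpl12 (15.79 and 7.51), Rpl31, Rps20 (9.35 and 6.63), Rpl27 (5.19 and 4.52) and Rpl23 (5.10 and 3.34), and 6 of them had an mESC region (85.7%), all but Rpl12. Over all genes 839 of 1065 did (78.8%). None of the 7 was free of RXRα peaks in mESCs, so no member was present in gastruloids alone (0.352% of all genes were). Present in both cell types were 6 (3.83% of all genes), and 4 had an mESC region and no peak in either gastruloid library (3.39% of all genes). The single-library shares of members averaged 44.5% ± 6.99 in mESCs and 35.7% ± 39.6 in gastruloids (SD, n = 2), with overlapping libraries and an exact two-sided permutation p = 1. Without replicate 2 of the gastruloids the difference, gastruloids minus mESCs, was 19.2 percentage points in place of -8.79.

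At the start, 14 of 57 core genes had RXRα in mESCs (24.6%, against 21.5% of all genes) and 5 had it in gastruloids (8.77%, against 5.19%): Rpl12, Rpl23, Rpl27, Rpl31 and Rps3a1. The 5 had mean folds of 4.22 to 21.53. The single libraries had a peak at 22 and 17 core starts in mESCs (37.3% and 25.3% of all genes) and at 40 and 5 in gastruloids (45.2% and 5.65%), so each count would be higher without replicate 2, at 22 and 40. In mESCs, 8 of the 23 RXRα genes with a known strand had the strongest summit nearer the other end, as at Rpl13a, 3260 bp past the start with folds of 8.01 and 6.93. For p300 in gastruloids 5 of 57 did. Over all genes 86.0% of RXRα mESC summits and 91.5% of p300 gastruloid summits were nearer the start.

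By regions in both replicates, Sp5 was the factor most often found together with p300 at these genes. The Zeb2 count it is ranked against rests on the second, shorter Zeb2 library. Zeb2 replicate 1 alone had a peak at 71 of the 75 members with p300 in gastruloids (94.7%, against 92.2% of all genes with p300). Of the 75 members with p300 in gastruloids, 50 had Sp5 (66.7%), close to the 67.7% of all genes with p300, and of the 52 with Sp5 50 had p300 (96.2%, against 90.9%). The Sp5 folds of the strongest region per member had a median of 7.25, beside 7.29 over all Sp5 regions at a gene end. Rpl3 had 27.40 and 19.41 (263 and 213 fragments; mean 23.40 ± 5.65, SD, n = 2), in the top 0.198% and 0.109% of the lists, at chr15:80083257-80083698. The p300 summit of Rpl3 was within the same region. Rps13, a small subunit protein, had 16.53 and 10.27 with the summit at -306, outside the promoter window, whose GC box is at -27 to -22. Rpl22l1 had 18.31 and 7.96 at -101, with a GC box at -140 to -135. Rpl12 had 13.87 and 9.91 at -10, next to the GC box at -16 to -11 printed above. Rpl15 had 13.07 and 10.56 at -131, next to the GC box at -127 to -122. At core starts Sp5 was at 39 of 57 (68.4%, against 37.5% of all genes), and the single libraries had 51 and 40 (49.7% and 38.6% of all genes). The replicate 1 fold was higher at 48 of the 52 genes, and the folds of each list are relative to its own background.

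Zeb2 had regions at fewer members than Sp5, a count that rests on its second library: the first libraries of Zeb2 and Sp5 had a peak at 75 and 72 members. The strongest Zeb2 gene was Rpl39, with 14.31 and 11.04 (61 and 24 fragments; mean 12.68 ± 2.31, SD, n = 2) and the summit at -149, next to the CACCTG at -144 to -139 printed above. Rps27a, a ubiquitin fusion, had 12.98 and 9.39, Rps13 had 13.02 and 5.73 at -255, Rpl6 had 10.19 and 6.69 at -102, and Rpl22l1 had 9.45 and 6.49 at 87. The promoter windows of Rps13, Rpl6 and Rpl22l1 hold no CACCTG, but the Zeb2 summit of Rps13 lies outside its window. Rps13 and Rpl22l1 thus stood among the 5 strongest of both Sp5 and Zeb2. Of the 52 Sp5 genes 12 had Zeb2 (23.1%), where 47.1% of all Sp5 genes did, and of the 75 with p300 in gastruloids 21 did (28%, against 43.8%). With Zeb2 replicate 1 alone, 49 of the 52 Sp5 genes had a Zeb2 peak (94.2%), where 95.6% of all Sp5 genes did, so the lower share among members comes with replicate 2. At core starts Zeb2 was at 11 of 57 (19.3%), below the 25% of all genes. In replicate 1 alone it was at 50 of 57 (57.9% of all genes) and in replicate 2 at 12 (26%), so the low share appeared only in the shorter list.

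**Figure D4:**
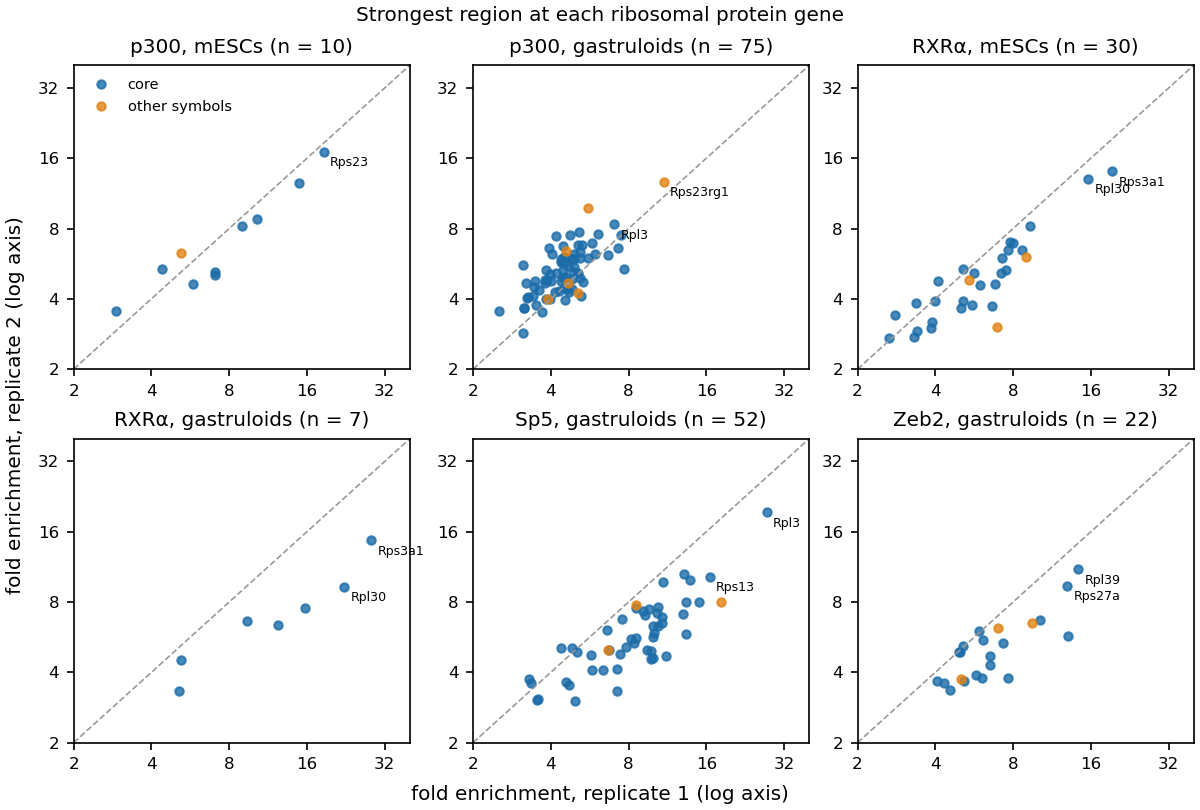
Fold enrichment of the strongest region at each member in replicate 1 (horizontal) and replicate 2 (vertical), on log axes, 1 panel per group; blue is core, orange other symbols, and the dashed line marks equal folds. Rpl3 stands apart for Sp5, Rps3a1 and Rpl30 for RXRα, and Rps23rg1 for p300 in gastruloids, whose core genes have replicate folds from 2.52 to 8.34.

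No gene had a region in all 6 groups. The members with 0, 1, 2, 3, 4 and 5 groups numbered 10, 13, 36, 20, 9 and 3, and the 3 with 5 groups were Rpl23, Rpl27 and Rps20. As shares these are 10.99%, 14.3%, 39.6%, 22.0%, 9.89% and 3.30% of the members, beside 44.3%, 12.7%, 15.9%, 14.6%, 8.50% and 3.42% of all genes, and 0.567% of all genes had all 6. Some members lie close to another gene: 32 have an end of another gene within 1 kb. Of these 27 had p300 in gastruloids, and so did 48 of the 59 without such a neighbour. Whether the p300 region lay at the end near the neighbour was not checked.

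The promoters of these genes held the TOP tract and ETS sites more often than other promoters. Windows of 300 bases, 250 before the start and 50 from it on, were searched in the 57 core promoters and in 17492 promoters of protein-coding genes (for a gene with several entries, the one nearest the gene end), on both strands except for the TATA motifs and the TOP tract. The TOP tract, a C at the start followed by at least 4 pyrimidines, was in 12 of 57 (21.1%), beside 2.17% of all promoters. CCGGAAG, the ETS core, was in 23 (40.4% and 11.9%). A palindrome around CGCG was in 5 (8.77% and 0.726%), and GGGCGG in 34 (59.6% and 46.3%). AAGATGGCG and GCCATNTTG, 2 forms of the YY1 site that can overlap, were each in 3 (5.26%, beside 1.92% and 3.02%). TATAAA was in 8.77% and 8.99%, and TATA, which TATAAA contains, in 35.1% and 33.3%. CACCTG was in 6 (10.5% and 19.3%) and AGGTCA in 5 (8.77% and 14.5%). The median GC content was 58.0% in the core and 56.3% in all promoters.

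**Figure D5:**
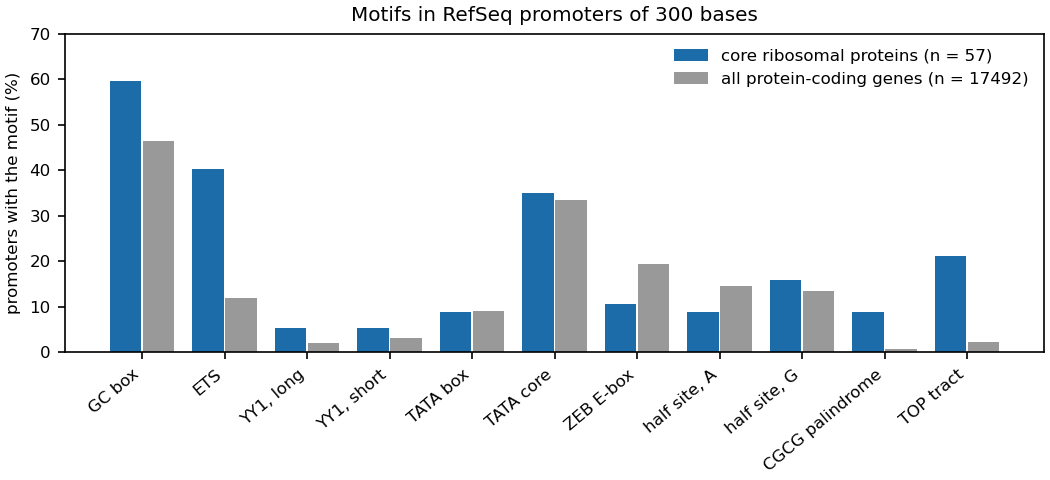
Share of 300-base RefSeq promoters (%, vertical axis) that hold each motif, for 57 core genes (blue) and 17492 protein-coding genes (grey). The ETS core (40.4% and 11.9%) and the TOP tract (21.1% and 2.17%) differ most in percentage points, the palindrome has the largest ratio (8.77% and 0.726%), and the TATA motifs differ little.

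Set against the regions at gene ends, the GC box was in 27 of 40 members with Sp5 (67.5%) and in 13 of 30 without (43.3%). This was not particular to Sp5: it was in 36 of 57 with p300 in gastruloids (63.2%) and 4 of 13 without (30.8%). RXRα in gastruloids (5 of 5 and 35 of 65) and p300 in mESCs (4 of 5 and 36 of 65) went the same way. Zeb2 (8 of 15 and 32 of 55) and RXRα in mESCs (12 of 23 and 28 of 47) went the other way. Rps2 and Rps27l, with a GC box and Sp5 at an inner start only, count as without Sp5 here. Likewise, the 4 with a GC box and without p300 in gastruloids include Rpl18, Rps2 and Rps27l, which had p300 at an inner start. The p300 contrast thus depends on counting by gene ends. GGGTCA, added after the sequences were seen, was in 7 of 23 members with RXRα in mESCs and 5 of 47 without. AGGTCA was in 3 of 23 and 5 of 47. Rps3a1 and Rpl31, printed above for RXRα, are among the 7 with GGGTCA, so its contrast is no test of the motif. Over promoters, GGGTCA was in 15.8% of the core and 13.4% of all. CACCTG was in 3 of 15 with Zeb2 and 6 of 55 without. The TOP tract was in 1 of 23 members with RXRα in mESCs and 13 of 47 without. These counts are small, and a match of letters is not a binding site.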

How the data were processed

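The data are 14 deposited peak lists in narrowPeak format, 1 per library, grouped by the factor and cell type of the labels with replicate numbers from the titles. Per the submitters' processing notes, fastp 0.20.1, BWA 2.2.1 and MACS2 2.2.7 were used with GRCm38.p6 (mm10); their roles, the handling of reads with several matches and whether inputs served as controls are not given in the sources used here. Ribosomal protein genes have many processed copies, so such reads bear on sites inside exons. The deposited score is 10 times the −log10 q, rounded down; the authors' fold is a ratio of summit signal to local background, and the authors give a −log10 p and −log10 q per peak. The smallest −log10 q corresponds to a threshold of 0.05. Sequencing depth is unknown. Fragments at a summit were recovered from fold and −log10 p, whole within 0.01 for 98.2% to 100% of up to 500 sampled peaks per library; intervals of such counts would cover counting error only.

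Peaks were kept if they lay on 1 of the 21 main chromosomes and touched no input peak. A region needs an overlap of at least 1 bp between replicates. Folds describe and rank peaks within a list only. Python 3.11.15 with pandas 2.3.3, numpy 2.4.6, scipy 1.17.1 and matplotlib 3.10.9 was used, and the steps were tested on simulated lists. p-values are exact permutation tests over libraries and measure only the spread between these libraries. Alternatives were summit distance, overlap, a q threshold, equal list lengths, keeping input peaks, the RefSeq start and each library left out.

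Named genes are those with regions in all 6 groups or none, p300 in mESCs, RXRα in gastruloids, an input peak, or a summit nearer the other end, at most 8 each by fold, the 8 strongest in p300 gastruloids and the 5 strongest in each other group; members that complete a count were added after their values were seen. The members and lists were chosen with earlier results of these data known. Of the 91 members, 21 had no entry in the promoter table. Some genes count in the totals and are not reported by name here.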

Additional observations from a re-analysis of the deposited data

How the results depend on the processing

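No paired analysis was possible because the results are counts of genes without a fitted test, and the labels give equal replicate numbers no shared culture or day. Over the alternatives, 109 of the settings tried left a count within 1.5 times or a share on its side, 33 moved one and 1 turned a direction. Of the 33 named folds, 4 lay over 1.5 times from the mean of both libraries when replicate 1 was left out: Rpl30 (15.81 to 9.31) and Rpl12 (11.65 to 7.51) for RXRα in gastruloids, Rpl22l1 for Sp5 (13.13 to 7.96) and Rps13 for Zeb2 (9.37 to 5.73). With all lists cut to 3111 peaks, p300 was at 0 members in either cell type, RXRα at 2 (mESCs) and 4 (gastruloids), Sp5 at 10 and Zeb2 at 3. Core starts then numbered 0 with p300 in either cell type, 1 (mESCs) and 3 (gastruloids) with RXRα, 7 with Sp5 and 2 with Zeb2. With the 4 p300 lists cut to 35371 peaks, added after the data were seen, p300 in gastruloids was at 29 members and 20 core starts, and 24 members were of the gastruloid-only kind. By the distance allowed, p300 in mESCs was at 4 members within 500 bp and 16 within 2 kb, and at 3 core starts within 2 kb. Counted at RefSeq starts alone, of 70 members, p300 in mESCs was at 1, RXRα in mESCs at 17 and Zeb2 at 14. With a −log10 q of at least 5, Zeb2 was at 9 members and 3 core starts, RXRα at 9 core starts in mESCs and 3 in gastruloids, and the gastruloid input at 0. Leaving out 1 library at a time, members ranged from 12 to 19 for p300 in mESCs, 7 to 58 for RXRα in gastruloids and 23 to 75 for Zeb2. Core starts ranged from 2 to 3 for p300 in mESCs, 17 to 22 for RXRα in mESCs, 5 to 40 for RXRα in gastruloids and 12 to 50 for Zeb2. The RXRα difference, gastruloids minus mESCs, ranged from -36.8 to 19.2 percentage points and turned positive without replicate 2 of the gastruloids. The counts were only repeated under each setting, and the cause of a changed count was not tested. The lowest library median was 12 fragments, and summits at members went down to 7 in the Zeb2 lists. Such counts are small, so a gene without a peak is not shown to lack binding.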
